A study of Mus musculus with 12 samples.

Results

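A group of 10 genes known from newborn and growing neurons was followed across mouse retinas with inherited retinal degeneration. The members are Sox4, Sox11, Dcx, Igfbpl1, Marcksl1, Stmn1, Tubb2b, Dpysl3, Gap43 and Crmp1, taken by gene symbol, and all 10 were found among the 32867 genes of the table and passed the filter on low counts. Whole retinas were sequenced in 12 samples, 3 in each of 4 groups. Pde6b rd1 mice, in which a viral insertion disrupts the gene of the rod phosphodiesterase subunit PDE6B, were labelled postnatal day 13. Pde6b rd10 mice, which carry a point mutation of the same gene, were labelled day 23, and Prph rd2 mice, which carry a mutation of the outer segment gene Prph2, were labelled day 29. The C3H samples, with wild-type alleles of both genes, were labelled days 13, 23 and 29, 1 sample each. The study's methods place Pde6b rd1 and Prph rd2 on the C3H background and Pde6b rd10 on C57Bl6/J, whereas the labels give C57BL6/J for Prph rd2. Mice were used irrespective of sex. Each mutation was sampled at a single labelled day, so that mutation and age cannot be told apart between the models. The strain of Pde6b rd10 cannot be told apart from its mutation either. If the label of Prph rd2 is right, the same holds for its strain.

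Newly born neurons pass through a stage of migration and process outgrowth before they form synapses. During it they express the SoxC transcription factors SOX4 and SOX11, the tubulins and microtubule binding proteins of the growing process, and proteins of the growth cone. In the retina most of these genes are known to be high before and shortly after birth and to decline as the neurons mature, while some, such as Gap43 and Stmn1, are also known from inner retinal neurons and from injured axons.

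The reads counted on genes ranged from 17049495 to 24755890 per sample. Levels are given as normalized CPM, the reads of a gene scaled by library size and by TMM over the 12 samples, a scale on which 3 counts lay between 0.121 and 0.169. The 3 C3H samples differed little despite their labelled days. The biological coefficient of variation, the spread between samples beyond counting error, was 3.12% among them. It was 3.35% among the Pde6b rd1 samples, 7.51% for Prph rd2 and 5.04% for Pde6b rd10, each of a single labelled day. C3H thus varied least, although it alone spans 3 labelled days. Of 11962 genes with at least 100 counts in both samples, 18 (0.150%) passed 1.5-fold between days 13 and 29. Pde6b transcript was at 1250 to 1281 normalized CPM in C3H and at 276 to 278 in Pde6b rd1, and Prph2 transcript was at 2731 to 3049 in C3H and 1280 to 1453 in Prph rd2. Xist, which is transcribed from the inactive X chromosome, was at 0.386 to 0.518 in C3H, at 3660 to 3893 in Pde6b rd1, at 1560 to 1982 in Prph rd2 and at 715 to 802 in Pde6b rd10. The Y-linked Ddx3y was listed at 0 in the 3 Pde6b rd1 samples and lay between 77.8 and 86.9 in C3H. It was at 31.7 to 37.9 in Prph rd2 and at 56.3 to 70.9 in Pde6b rd10, so that these samples held both transcripts. All 3 models thus differed from C3H in sex-linked transcripts as well as in mutation, and these cannot be told apart. The part of the difference in sex-linked transcripts in the results was not tested.

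Upstream sequences of 5 members were available from RefSeq (GRCm38.p6). They are shown because all 5, like the members without a sequence here, lay above every C3H sample in Pde6b rd1. The stretches lie upstream of the annotated gene and read 5′ to 3′ on the strand of the gene. Capitals mark, on either strand, the letters of the CCAAT box, of the TATA box (TATAAA), of the GC box (GGGCGG), and of the E-box searched as CAGCTG or, in a second form, as CATATG, and neighbouring GC boxes overlap in Crmp1.
Sox4 (chr13:28953714-28953863, minus strand): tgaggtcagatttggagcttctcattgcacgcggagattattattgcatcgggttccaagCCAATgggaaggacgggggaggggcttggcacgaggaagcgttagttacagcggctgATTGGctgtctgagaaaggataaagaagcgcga
Sox11 (chr12:27342719-27342868, minus strand): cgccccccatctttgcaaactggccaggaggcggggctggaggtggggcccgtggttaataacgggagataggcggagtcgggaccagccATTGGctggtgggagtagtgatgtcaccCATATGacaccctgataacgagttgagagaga
Dcx (chrX:143933312-143933461, minus strand): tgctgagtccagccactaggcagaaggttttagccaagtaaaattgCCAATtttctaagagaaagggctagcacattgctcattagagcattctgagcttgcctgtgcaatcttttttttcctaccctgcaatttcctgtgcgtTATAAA
Marcksl1 (chr4:129513431-129513580, plus strand): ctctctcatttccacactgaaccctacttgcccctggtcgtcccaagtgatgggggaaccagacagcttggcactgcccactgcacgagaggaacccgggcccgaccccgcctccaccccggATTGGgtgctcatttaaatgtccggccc
Crmp1 (chr5:37241808-37241939, plus strand): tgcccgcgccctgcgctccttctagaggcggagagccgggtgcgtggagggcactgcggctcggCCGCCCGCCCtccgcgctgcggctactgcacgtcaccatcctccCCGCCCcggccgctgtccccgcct
The 5 members have 7 promoter entries, each of 250 bases before and 50 after a start site. A CCAAT box (the letters of its name) was in 5 of the 7 and in 37.4% of all 32851 entries, and a GC box was in 4 of the 7 and in 35.7% of all. The TATA box was in 2 of the 7 (13.6% of all), CAGCTG in 2 (16.3%) and CATATG in 1 (3.91%). Both TATA matches are the same bases, held by 2 overlapping entries of Dcx. The SOX core motif AACAAT was in none of the 7 and in 10.7% of all, and the cyclic AMP response element TGACGTCA was in none and in 1.79% of all. These are matches of letters in short windows.

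Most of the 10 genes were highest in Pde6b rd1, next in C3H, lower in Prph rd2 and lowest in Pde6b rd10. In Pde6b rd1, 5 of the 10 were called higher than in C3H and none lower, where 8.98% of the 18310 genes tested were called higher and 6.03% lower. In Pde6b rd10, 7 of the 10 were called lower and none higher, where 8.08% of 18704 genes were called lower and 15.9% higher. In Prph rd2, 2 of the 10 were called lower and none higher, where 1.89% of 18581 genes were called lower and 2.68% higher. Calls needed a change of at least 1.5-fold and an unadjusted p under 0.05 in edgeR's quasi-likelihood test. All 3 comparisons share the same C3H samples. The summed level of the 10 genes was 1698 to 1730 normalized CPM in C3H, 2189 to 2208 in Pde6b rd1, 1417 to 1433 in Prph rd2 and 863 to 881 in Pde6b rd10, and no group overlapped another. Dpysl3 alone held the largest part of this sum, with 961 to 984 in C3H and 447 to 459 in Pde6b rd10. In whole retina, fewer cells that express a gene and less RNA per cell cannot be told apart. The study calls the samples biological replicates without saying how many animals each one holds. Each Prph rd2 and Pde6b rd10 sample held both Xist and Ddx3y transcript, and may thus be a pool of mice. The p-values measure the spread between these samples, not between animals, and this spread may in part be technical.

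**Figure D1:**
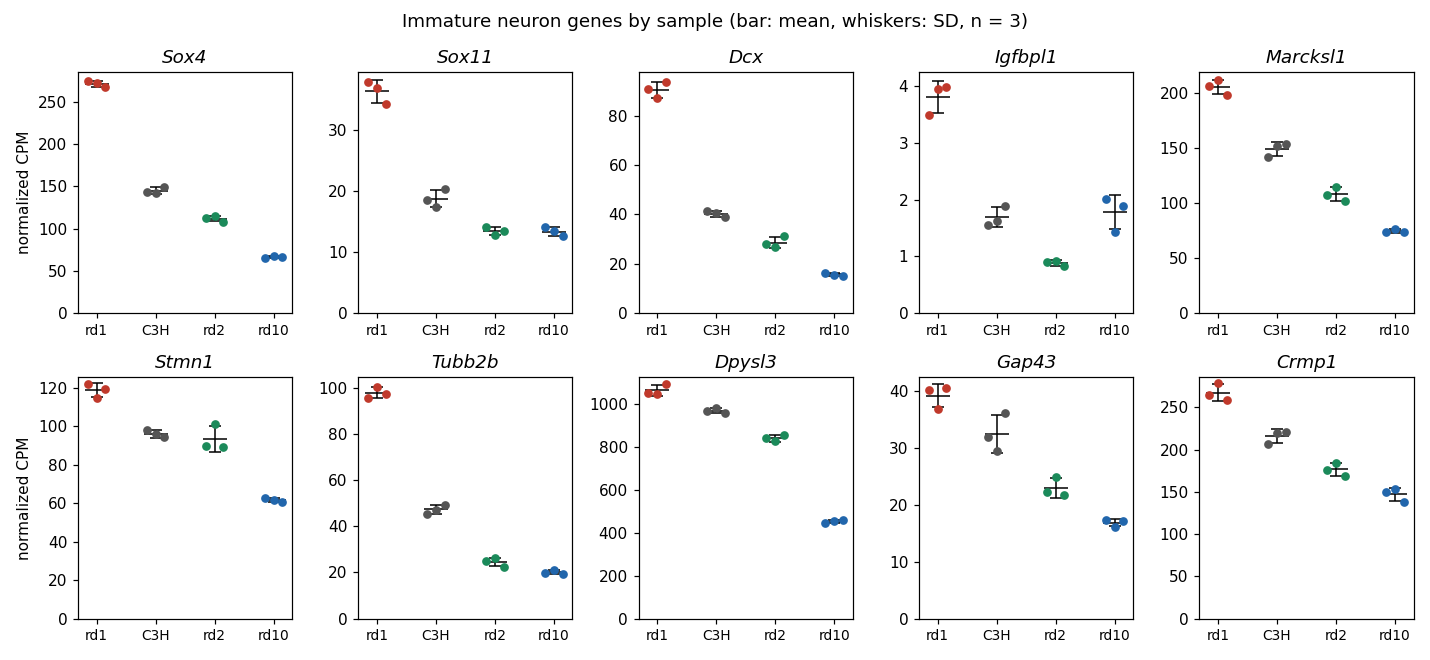
Normalized CPM (y axis, linear, from 0) of each gene in the 3 samples of Pde6b rd1, C3H, Prph rd2 and Pde6b rd10 (x axis); points are samples, the bar is the mean and the whiskers the SD. In every panel the 3 Pde6b rd1 samples lie above all C3H samples, and in every panel but that of Igfbpl1 the Pde6b rd10 samples lie below them.

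SOX4 and SOX11 are related transcription factors that switch on neuronal genes, and each is encoded by a gene of a single exon. Sox4 was at 143, 142 and 149 normalized CPM in C3H and at 274, 271 and 267 in Pde6b rd1. It was at 113, 115 and 108 in Prph rd2 and at 65.6, 68.1 and 66.4 in Pde6b rd10. The 4 groups did not overlap, and the lowest Pde6b rd1 sample lay above every other sample. Against C3H, Sox4 rose in Pde6b rd1 by a log2 fold change of 0.93 (SE 0.0332, adjusted p = 9.82e-17, edgeR with Benjamini-Hochberg adjustment, n = 3 in each group). In Pde6b rd10 it fell, with a log2 fold change of -1.12 (SE 0.0439, edgeR adjusted p = 1.09e-14). In Prph rd2 the log2 fold change was -0.37 (SE 0.0484, edgeR adjusted p = 0.000179), under the fold threshold.

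Sox11 was expressed at a lower level, at 18.6, 17.4 and 20.3 normalized CPM in C3H and at 37.9, 36.9 and 34.3 in Pde6b rd1. In Prph rd2 it was at 14.1, 12.8 and 13.5, and in Pde6b rd10 at 14.1, 13.4 and 12.6. Both later models lay below every C3H sample and overlapped each other. Sox11 rose in Pde6b rd1 (log2 fold change 0.98, SE 0.0669, edgeR adjusted p = 1.88e-11). The log2 fold change was -0.48 in Pde6b rd10 (SE 0.0845, edgeR adjusted p = 5.89e-05) and -0.48 in Prph rd2 (SE 0.0866, edgeR adjusted p = 0.00271), in neither case past 1.5-fold. Unlike Sox4, Sox11 was not distinguished between these models (log2 fold change of Pde6b rd10 over Prph rd2 -0.01, SE 0.0816, edgeR adjusted p = 0.957).

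By FPKM, which takes gene length into account, Sox4 made up 69.0 to 69.8% of the summed SoxC level (Sox4, Sox11 and Sox12) in C3H. This share was 75.2 to 76.2% in Pde6b rd1, 65.0 to 68.0% in Prph rd2 and 57.6 to 62.1% in Pde6b rd10. The third SoxC gene, Sox12, was not called in any of the 3 models, but it moved in the direction of Sox4. It was at 47.5 to 51.5 normalized CPM in C3H and, without overlap, at 59.0 to 63.4 in Pde6b rd1. It was at 30.9 to 39.4 in Pde6b rd10, below C3H, and at 40.1 to 48.6 in Prph rd2, which overlapped C3H. Its changes were smaller than those of Sox4, and its share was lowest in Pde6b rd1 (18.1 to 18.9%) and highest in Pde6b rd10 (31.1 to 35.8%). The noncoding gene Gm26735 overlaps Sox4 on the other strand with 15 to 123 counts, against 2764 counts of Sox4 in the C3H sample of day 13. Whether the counting used the strand is not given in the sources used here.

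Dcx encodes doublecortin, which binds microtubules in migrating neurons. Its level was 41.3, 40.6 and 38.8 normalized CPM in C3H and 90.6, 87.1 and 93.7 in Pde6b rd1. The Prph rd2 samples were at 27.9, 26.6 and 31.2 and the Pde6b rd10 samples at 16.5, 15.4 and 15.2. No groups overlapped, and Dcx had the widest range of the 10 genes as a fold between group means, from 90.5 ± 3.29 (SD) in Pde6b rd1 to 15.7 ± 0.674 in Pde6b rd10. It rose in Pde6b rd1 (log2 fold change 1.19, SE 0.0465, edgeR adjusted p = 5.13e-16) and fell in Pde6b rd10 (log2 fold change -1.35, SE 0.0670, edgeR adjusted p = 4.75e-13). In Prph rd2 the log2 fold change was -0.49 (SE 0.0700, edgeR adjusted p = 0.000381), short of 1.5-fold. Dcx lies on the X chromosome (143855842 to 143933311, minus strand). The part of X-linkage and of the sex of the mice in its levels was not tested.

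Among the doublecortin genes, Dcx made up 14.6 to 15.2% of the summed FPKM of Dcx, Dclk1, Dclk2 and Dclk3 in C3H, 25.6 to 27.7% in Pde6b rd1, 10.05 to 11.3% in Prph rd2 and 5.11 to 5.68% in Pde6b rd10. Dclk1 and Dclk2, which encode doublecortin-like kinases, were called in none of the 3 models. The weakly expressed Dclk3 went the other way from Dcx. It fell in Pde6b rd1 (log2 fold change -1.24, SE 0.363, edgeR adjusted p = 0.00741) and rose in Pde6b rd10 (2.16, SE 0.190, edgeR adjusted p = 5.07e-09).

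Tubb2b encodes a beta-tubulin of growing neurons. Tubb2b was at 45.5, 47.3 and 49.5 normalized CPM in C3H and at 95.9, 101 and 97.6 in Pde6b rd1. It was at 24.9, 26.1 and 22.5 in Prph rd2 and at 19.97, 20.99 and 19.2 in Pde6b rd10. All 4 groups were separate, and it is the member that was called in all 3 models. It rose in Pde6b rd1 (log2 fold change 1.07, SE 0.0444, edgeR adjusted p = 1.67e-15). It fell in Pde6b rd10 (log2 fold change -1.24, SE 0.0632, edgeR adjusted p = 7.33e-13) and in Prph rd2 (log2 fold change -0.95, SE 0.0685, edgeR adjusted p = 5.21e-07).

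Tubb2b was a minor beta-tubulin, with 3.27 to 3.31% of the summed FPKM of 7 beta-tubulin genes in C3H, 6.44 to 6.64% in Pde6b rd1, 2.12 to 2.22% in Prph rd2 and 2.102 to 2.12% in Pde6b rd10. Tubb2a, whose coding sequence is closely similar, so that reads may be split or lost between them, was at 26.7 to 27.4% in Pde6b rd1 and 28.0 to 28.5% in C3H. Tubb2a fell in Pde6b rd10 (log2 fold change -0.84, SE 0.0418, edgeR adjusted p = 5.76e-13), as did Tubb5 (-0.71, SE 0.0362, edgeR adjusted p = 8.15e-13). Tubb6 rose in both Pde6b models, with log2 fold changes of 0.77 (SE 0.150, edgeR adjusted p = 0.000193) in Pde6b rd1 and 1.17 (SE 0.148, edgeR adjusted p = 1.08e-06) in Pde6b rd10. Tubb3, the beta-tubulin used as a general marker of neurons, was not called in any model.

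Stmn1 encodes stathmin, which promotes the disassembly of microtubules. Stmn1 was at 98.1, 95.8 and 94.1 normalized CPM in C3H, at 122, 115 and 119 in Pde6b rd1, at 89.7, 101 and 89.2 in Prph rd2, and at 62.8, 61.5 and 60.5 in Pde6b rd10. The Prph rd2 samples lay on both sides of the C3H samples, and the other groups were separate from C3H. Stmn1 fell in Pde6b rd10 (log2 fold change -0.64, SE 0.0460, edgeR adjusted p = 2.06e-10), close to the threshold of 1.5-fold. It was not called under inner retina scaling (-0.54) or by limma on log2(FPKM + 1) (-0.57). Its log2 fold change was 0.33 in Pde6b rd1 (SE 0.0386, edgeR adjusted p = 1.80e-07) and -0.04 in Prph rd2 (SE 0.0566, edgeR adjusted p = 0.732). Stmn2 and Stmn4, 2 other stathmins of neurons, also fell in Pde6b rd10, with log2 fold changes of -0.78 (SE 0.0439, edgeR adjusted p = 3.77e-12) and -0.70 (SE 0.105, edgeR adjusted p = 9.84e-06).

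CRMP1 and DPYSL3 belong to the collapsin response mediator proteins, which pass on guidance signals in the growth cone. Dpysl3 had the highest read share of the 10 genes, at 969, 984 and 961 normalized CPM in C3H and 1054, 1049 and 1095 in Pde6b rd1. It was at 841, 828 and 859 in Prph rd2 and at 447, 454 and 459 in Pde6b rd10. The Pde6b rd10 samples stood far below all others, while the other 3 groups were separate and close. Dpysl3 fell in Pde6b rd10 (log2 fold change -1.10, SE 0.0327, edgeR adjusted p = 1.00e-16). Its log2 fold change was 0.16 in Pde6b rd1 (SE 0.0265, edgeR adjusted p = 3.09e-05) and -0.20 in Prph rd2 (SE 0.0399, edgeR adjusted p = 0.00449). By FPKM, Dpysl3 made up 36.2 to 37.2% of the 5 genes of this family in C3H, 39.7 to 40.7% in Pde6b rd1, 34.2 to 35.8% in Prph rd2 and 24.2 to 24.96% in Pde6b rd10, where Dpysl2 made up 56.2 to 57.6%.

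Crmp1 was at 206, 220.1 and 221 normalized CPM in C3H, at 265, 279 and 258 in Pde6b rd1, at 176, 184 and 169 in Prph rd2, and at 149.9, 153 and 138 in Pde6b rd10. The groups did not overlap, yet no model passed 1.5-fold. Its log2 fold changes were 0.33 in Pde6b rd1 (SE 0.0357, edgeR adjusted p = 4.88e-08), -0.29 in Prph rd2 (SE 0.0496, edgeR adjusted p = 0.00173) and -0.55 in Pde6b rd10 (SE 0.0446, edgeR adjusted p = 1.28e-09). The related Dpysl5 fell in Pde6b rd10 (log2 fold change -0.95, SE 0.0422, edgeR adjusted p = 8.30e-14). Crmp1 overlaps Evc on the opposite strand, which held 62 to 109 counts per sample, against 3983 counts of Crmp1 in the C3H sample of day 13.

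Gap43 and Marcksl1 encode membrane-bound proteins of the growth cone. Gap43 was at 31.9, 29.5 and 36.1 normalized CPM in C3H, at 40.1, 36.8 and 40.5 in Pde6b rd1, at 22.2, 24.9 and 21.7 in Prph rd2, and at 17.3, 16.1 and 17.1 in Pde6b rd10. No groups overlapped, although the highest C3H sample, of day 29, lay just under the lowest Pde6b rd1 sample. Gap43 fell in Pde6b rd10 (log2 fold change -0.94, SE 0.0781, edgeR adjusted p = 1.93e-09). The log2 fold change was 0.30 in Pde6b rd1 (SE 0.0652, edgeR adjusted p = 0.000585) and -0.50 in Prph rd2 (SE 0.0824, edgeR adjusted p = 0.00128).

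Marcksl1 was at 142, 151 and 154 normalized CPM in C3H and at 206, 212 and 198 in Pde6b rd1. It was at 108, 114 and 102 in Prph rd2 and at 73.7, 76.7 and 73.4 in Pde6b rd10. All groups were separate. Marcksl1 fell in Pde6b rd10 (log2 fold change -1.001, SE 0.0452, edgeR adjusted p = 1.03e-13), and its log2 fold change was 0.49 in Pde6b rd1 (SE 0.0371, edgeR adjusted p = 1.47e-10) and -0.46 in Prph rd2 (SE 0.0543, edgeR adjusted p = 6.94e-05). When samples were scaled to equal levels of inner retinal neuron genes, the value in Pde6b rd1 became 0.66 and passed the threshold. Basp1, a growth cone protein related in function to GAP43, fell in Pde6b rd10 (log2 fold change -0.80, SE 0.0547, edgeR adjusted p = 9.48e-11), while Marcks itself was not called in any model. Marcks was at 373 to 390 normalized CPM in C3H and at 473 to 481 in Pde6b rd1. It was at 330 to 344 in Prph rd2 and at 246 to 268 in Pde6b rd10, with separate groups in the same order as Marcksl1.

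Igfbpl1 encodes a protein related to the insulin-like growth factor binding proteins. It was the least abundant member, with 30 to 38 counts in the C3H samples. Igfbpl1 was at 1.55, 1.63 and 1.89 normalized CPM in C3H and at 3.48, 3.95 and 3.99 in Pde6b rd1. It was at 0.899, 0.923 and 0.835 in Prph rd2 and at 2.01, 1.44 and 1.89 in Pde6b rd10. The Pde6b rd10 samples overlapped C3H, and here Prph rd2, not Pde6b rd10, was the lowest group. Igfbpl1 rose in Pde6b rd1 (log2 fold change 1.19, SE 0.186, edgeR adjusted p = 1.26e-05) and fell in Prph rd2 (log2 fold change -0.93, SE 0.255, edgeR adjusted p = 0.0339). In Pde6b rd10 the log2 fold change was 0.09 (SE 0.220, edgeR adjusted p = 0.757). On log2(FPKM + 1), a scale that understates changes of low genes, the values were 0.56 in Pde6b rd1 and -0.24 in Prph rd2 and neither passed 1.5-fold.

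**Figure D2:**
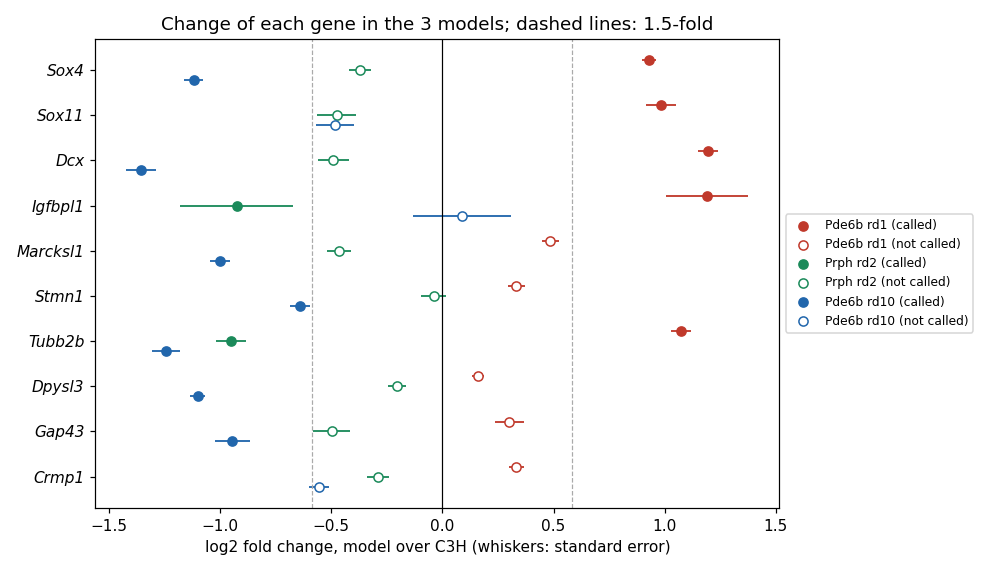
Log2 fold change of each of the 10 genes over the 3 C3H samples (x axis), with Pde6b rd1 in red, Prph rd2 in green and Pde6b rd10 in blue; whiskers are standard errors, filled points are called, open points are not, and dashed lines mark 1.5-fold. The Pde6b rd1 points lie right of 0 for all 10 genes and the Prph rd2 points left of it, and Igfbpl1 is the gene whose Pde6b rd10 point is not left of 0.

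Over the 10 genes the median log2 fold change was 0.71 in Pde6b rd1, -0.47 in Prph rd2 and -0.97 in Pde6b rd10, where the medians of all genes tested were -0.01, -0.00125 and -0.00248. The samples did not overlap C3H for all 10 genes in Pde6b rd1, all higher, as for 23.2% of all genes tested. They were lower without overlap for 9 genes in Pde6b rd10 (28.8% of all genes) and for 9 in Prph rd2 (14.2% of all genes). The members called higher in Pde6b rd1 were both SoxC genes, Dcx, Tubb2b and Igfbpl1, while Stmn1, Dpysl3, Gap43 and Crmp1 lay between 0.16 and 0.33 there.

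The models were also set against each other in a fit of all 12 samples, which tests whether their differences from C3H differ. All 10 genes were higher in Pde6b rd1 than in Pde6b rd10, where 11.2% of 19616 genes were called higher. The difference ran from a log2 fold change of 0.86 for Crmp1 (SE 0.0487, edgeR adjusted p = 6.12e-12) to 2.52 for Dcx (SE 0.0649, edgeR adjusted p = 2.48e-17), followed by Tubb2b with 2.29 (SE 0.0613, edgeR adjusted p = 4.54e-17) and Sox4 with 2.02 (SE 0.0426, edgeR adjusted p = 1.21e-18). In Pde6b rd1, 8 of the 10 were called higher than in Prph rd2, where 8.66% of all genes were called higher. Stmn1 (log2 fold change 0.35, SE 0.0497, edgeR adjusted p = 1.15e-05) and Dpysl3 (0.34, SE 0.0330, edgeR adjusted p = 6.94e-08) were also higher, but by less than 1.5-fold.

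Between the models of the later days, 4 of the 10 were called lower in Pde6b rd10 than in Prph rd2 (6.16% of all genes) and 1 was called higher (13.5% of all genes). The genes called lower were Dpysl3 (log2 fold change -0.89, SE 0.0334, edgeR adjusted p = 1.50e-14), Dcx (-0.86, SE 0.0692, edgeR adjusted p = 2.50e-09), Sox4 (-0.75, SE 0.0428, edgeR adjusted p = 1.37e-11) and Stmn1 (-0.60, SE 0.0514, edgeR adjusted p = 6.95e-09). Stmn1 stood at the edge of the threshold and missed it under several of the alternatives. Igfbpl1 was higher in Pde6b rd10 (1.01, SE 0.219, edgeR adjusted p = 0.000742). Tubb2b, called lower in both models against C3H, differed between them by -0.29 (SE 0.0666, edgeR adjusted p = 0.00124), short of 1.5-fold. Marcksl1 (-0.53, SE 0.0502, edgeR adjusted p = 2.65e-08), Gap43 (-0.44, SE 0.0814, edgeR adjusted p = 0.000144) and Crmp1 (-0.26, SE 0.0487, edgeR adjusted p = 0.000163) were also lower in Pde6b rd10, by less than 1.5-fold.

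The C3H samples were compared by their labelled day, 1 sample each and so without a test. The ratio of day 13 over day 29 ran from 0.821 for Igfbpl1 to 1.06 for Dcx, with a median of 0.928, and the counting intervals of Igfbpl1 (0.488 to 1.37) and of Dcx (0.961 to 1.18) include 1. Gap43 (0.885, counting interval 0.792 to 0.988), Marcksl1 (0.922, 0.875 to 0.972) and Crmp1 (0.933, 0.893 to 0.975) were a little lower at the labelled day 13. For no member did the counting interval of day 13 over day 29 lie wholly above 1. Within C3H the highest sample exceeded the lowest by between 1.02-fold for Dpysl3 and 1.22-fold for Gap43 and Igfbpl1. Intervals cover counting error only.

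Against the C3H sample of the same labelled day alone, the 3 Pde6b rd1 samples were at 1.87 to 1.92 times its level for Sox4, 1.84 to 2.04 times for Sox11, 2.11 to 2.27 times for Dcx and 2.11 to 2.21 times for Tubb2b. The same 5 genes were called in Pde6b rd1 and the same 7 in Pde6b rd10 as against all 3 C3H samples. In Prph rd2 the count rose from 2 to 4 against the C3H sample of day 29, with Sox11 (log2 fold change -0.59) and Gap43 (-0.66) added, and 402 of 20885 genes were called lower there. Whether the C3H day labels are right was not tested, and these values depend on them. As C3H varied less than the models of a single labelled day, a shared label does not establish a shared age.

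**Figure D3:**
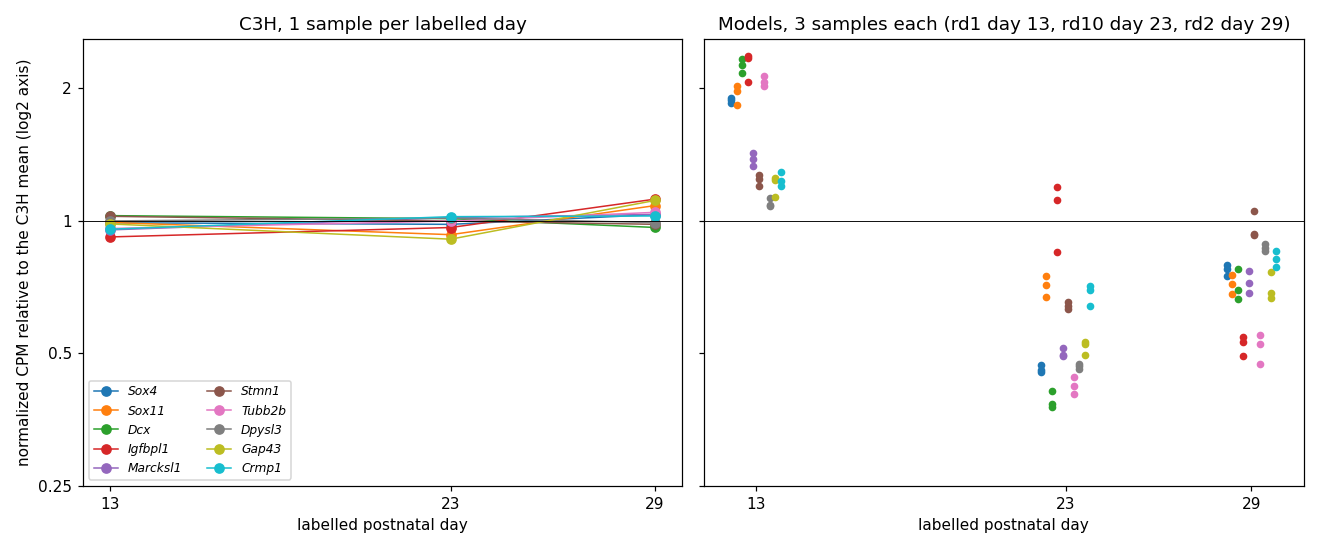
Level of each gene relative to its mean in the 3 C3H samples (y axis, log2 scale) against labelled postnatal day (x axis); lines join the 3 C3H samples on the left, and points are the 3 samples of each model on the right, set apart sideways by gene. The C3H lines stay near 1 on all 3 days, while the models spread from above 2 for Dcx, Tubb2b and Igfbpl1 in Pde6b rd1 at day 13 to below 0.5 for Sox4, Dcx, Tubb2b and Dpysl3 in Pde6b rd10 at day 23.

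Of all genes tested, 8.98% were called higher and 6.03% lower in Pde6b rd1, 15.9% and 8.08% in Pde6b rd10, and 2.68% and 1.89% in Prph rd2. These shares also apply to the lists below. Relatives of the members in the same gene families were compared as a list of 19, of which 18 were tested. In Pde6b rd1, 1 was called higher (Tubb6) and 1 lower (Dclk3), and the median log2 fold change was 0.08. In Pde6b rd10, 6 were called lower (Dpysl5, Tubb2a, Tubb5, Stmn2, Basp1 and Stmn4) and 2 higher (Dclk3 and Tubb6), with a median of -0.47. In Prph rd2, edgeR, DESeq2 and limma called none of the 18, although 11 had an unadjusted p under 0.05 in edgeR, all 11 with a negative log2 fold change, and the median was -0.21.

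**Figure D4:**
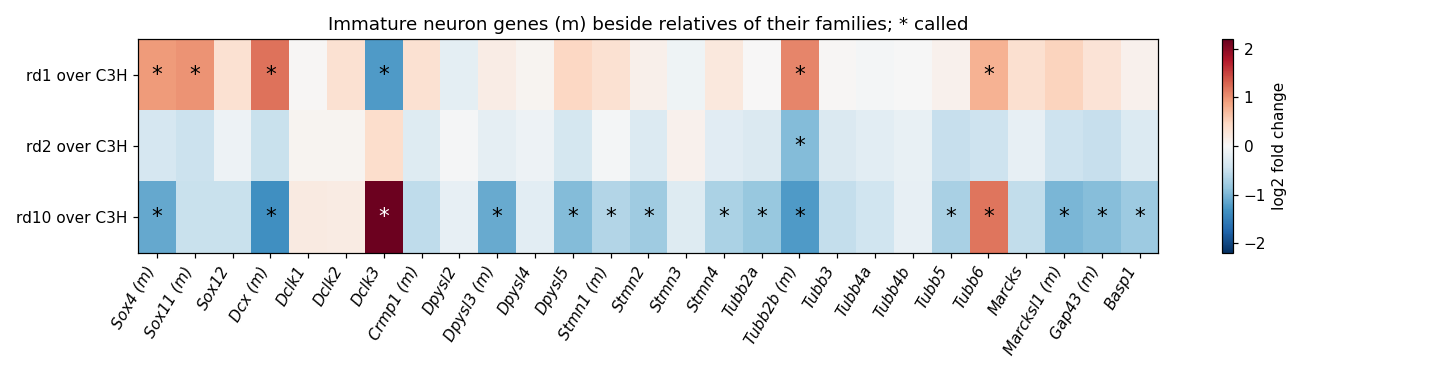
Log2 fold change over C3H (color, red higher and blue lower) of 9 members (m) and their relatives, ordered by family (x axis), for each model (y axis); an asterisk marks a called gene. Igfbpl1 has no relative in the list and is not drawn. In the Pde6b rd1 row the asterisks stand on 4 members and on Tubb6 and Dclk3, and in the Prph rd2 row on Tubb2b alone.

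Among all genes, 8.98% were called higher in Pde6b rd1, 8.08% lower in Pde6b rd10 and 1.89% lower in Prph rd2. Other genes of neuronal differentiation, a list of 31, were also followed, with no test of the list. In Pde6b rd1, 4 were called higher and none lower: the neuronatin gene Nnat (log2 fold change 0.78, SE 0.0398, edgeR adjusted p = 9.37e-14), Cd24a (1.12, SE 0.0633, edgeR adjusted p = 5.90e-13), the polysialyltransferase gene St8sia4 (0.80, SE 0.101, edgeR adjusted p = 6.99e-07) and Draxin (0.73, SE 0.160, edgeR adjusted p = 0.000603), which encodes an axon guidance protein. In Pde6b rd10, 7 were called lower and none higher, with Nnat at -1.92 (SE 0.0631, edgeR adjusted p = 5.68e-16) and Rnd2, which encodes a small GTPase of migrating neurons, at -1.01 (SE 0.0605, edgeR adjusted p = 1.05e-11). In Prph rd2, 3 were called lower: Nnat (-0.66, SE 0.0698, edgeR adjusted p = 2.66e-05), Cd24a (-0.75, SE 0.0875, edgeR adjusted p = 6.79e-05) and Draxin (-0.88, SE 0.248, edgeR adjusted p = 0.0374). The medians of this list were 0.02 in Pde6b rd1, -0.10 in Prph rd2 and -0.35 in Pde6b rd10, nearer to those of all genes than the medians of the 10 members.

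The shares of all genes called higher were 8.98% in Pde6b rd1 and 15.9% in Pde6b rd10. Those called lower were 8.08% in Pde6b rd10 and 1.89% in Prph rd2. Of 15 tested proneural and Notch pathway genes, which act in progenitors and at the onset of differentiation, 2 were called higher and none lower in Pde6b rd1. One of them was the Notch ligand gene Dll3 (log2 fold change 0.87, SE 0.245, edgeR adjusted p = 0.00591). In Prph rd2, edgeR, DESeq2 and limma called none, with 5 at an unadjusted p under 0.05 in edgeR. In Pde6b rd10, 5 were called lower, among them Insm1 (-1.89, SE 0.0623, edgeR adjusted p = 6.12e-16) and Hes5 (-2.12, SE 0.115, edgeR adjusted p = 2.11e-12), and 2 were called higher. Of 14 cell division genes, 7 were called higher in Pde6b rd1, such as Mki67 (1.33, SE 0.148, edgeR adjusted p = 8.72e-08) and Top2a (1.34, SE 0.141, edgeR adjusted p = 3.52e-08), and 3 in Pde6b rd10, such as Mcm2 (1.21, SE 0.111, edgeR adjusted p = 9.18e-09) and Mki67 (0.82, SE 0.154, edgeR adjusted p = 0.000130). In Prph rd2, 3 were called lower.

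Of 16 mature neuron genes, 2 were called lower and none higher in Pde6b rd1, the neurofilament gene Nefh (log2 fold change -0.85, SE 0.0469, edgeR adjusted p = 3.99e-13) and the synapsin gene Syn2 (-0.65, SE 0.0449, edgeR adjusted p = 2.14e-11). In Pde6b rd10, 3 were called lower and 2 higher, where 8.08% of all genes were called lower and 15.9% higher. In Prph rd2, edgeR, DESeq2 and limma called none, and 8 had an unadjusted p under 0.05 in edgeR, 3 with a negative and 5 with a positive log2 fold change. Their medians were -0.35, 0.00363 and -0.02 in Pde6b rd1, Pde6b rd10 and Prph rd2. In Pde6b rd10 the genes called lower included Map2 (-0.69, SE 0.0415, edgeR adjusted p = 1.30e-11) and the synapsin gene Syn2 (-0.74, SE 0.0453, edgeR adjusted p = 1.40e-11).

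Markers of some retinal cell types also differed from C3H, rod genes in all 3 models. The shares of all genes called higher and lower were 8.98% and 6.03% in Pde6b rd1. They were 15.9% and 8.08% in Pde6b rd10, and 2.68% and 1.89% in Prph rd2. Rod genes were called lower for 8 of 12 in Pde6b rd1, for 7 in Pde6b rd10 and for 3 in Prph rd2, and their summed level was 29533 to 30710 normalized CPM in C3H, 15033 to 15077 in Pde6b rd1, 24152 to 25227 in Pde6b rd10 and 19209 to 20570 in Prph rd2. Of 10 bipolar cell genes, edgeR called 1 lower in Pde6b rd1 and none in the other models, where 3 in Prph rd2 and 10 in Pde6b rd10 had an unadjusted p under 0.05 and DESeq2 called none and limma 1 in Pde6b rd10. Of 10 amacrine cell genes, edgeR called 1 lower in Pde6b rd1 and none in the other models, where 4 in Prph rd2 and 7 in Pde6b rd10 had an unadjusted p under 0.05 and DESeq2 and limma called none. Of 9 ganglion cell genes, 1 was called lower in Pde6b rd1 and 2 in Pde6b rd10, and their summed level was 444 to 461 in C3H, 354 to 360 in Pde6b rd1, 401 to 413 in Pde6b rd10 and 429 to 452 in Prph rd2. Of 6 horizontal cell genes, 1 was called higher (Onecut2) and 1 lower (Calb1) in Pde6b rd1. Microglia genes were called higher for 10 of 11 in Pde6b rd10, with a summed level of 186 to 205 against 62.0 to 64.6 in C3H, and for 2 of 10 in Pde6b rd1, where the sum was 58.7 to 65.5. Of 12 Müller glia and astrocyte genes, 4 were called lower in Pde6b rd1, and 4 higher and 1 lower in Pde6b rd10, where Gfap rose with a log2 fold change of 3.19 (SE 0.0488, edgeR adjusted p = 2.21e-21). The part of these cell types in the levels of the 10 members was not tested. When samples were instead scaled to equal levels of inner retinal neuron genes, the median of all genes in Pde6b rd1 moved from -0.01 to 0.16 on the log2 scale. On that scale 6 members were called higher in Pde6b rd1, where 2299 of 18310 genes were called higher against 1645 with TMM, and 6 were called lower in Pde6b rd10, where 1166 of 18704 genes were called lower against 1511 with TMM.

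**Figure D5:**
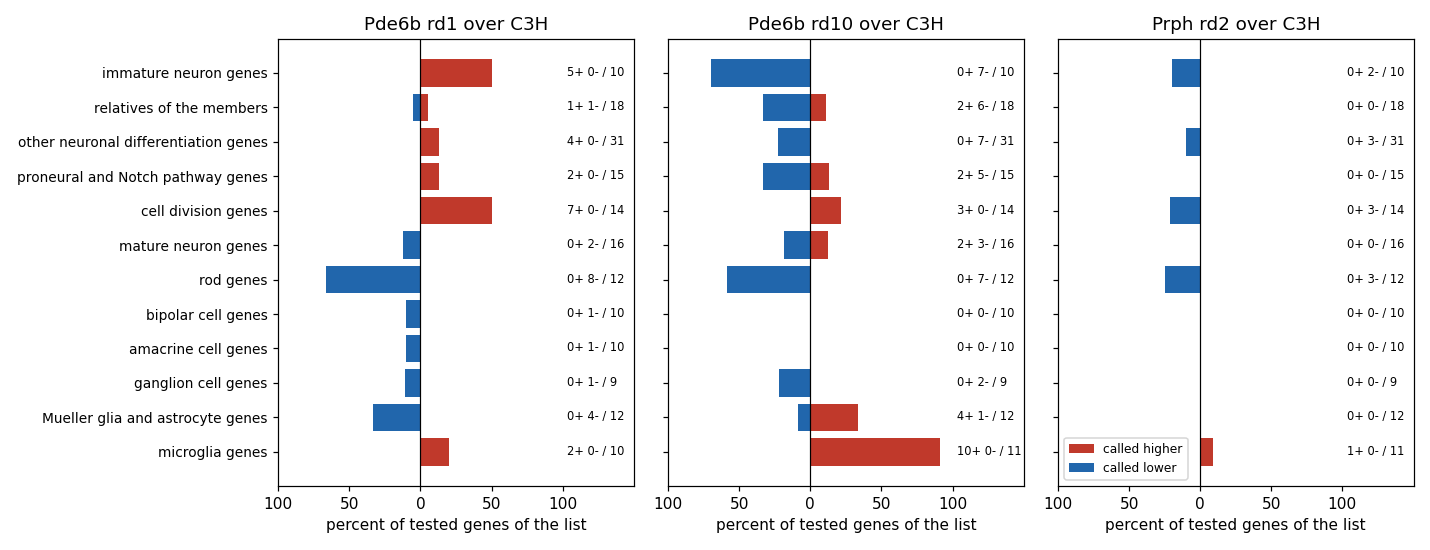
Percent of the tested genes of each list (y axis) called higher (red, to the right) or lower (blue, to the left) than C3H in Pde6b rd1, Pde6b rd10 and Prph rd2; the numbers give genes higher, lower and tested. The immature neuron genes have 5 of 10 called higher in Pde6b rd1, 7 of 10 called lower in Pde6b rd10 and 2 of 10 called lower in Prph rd2, while bipolar and amacrine cell genes have at most 1 of 10 called.

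Across the 12 samples, the members were compared with the mean of their own centred log2 profiles. Pearson's r to this mean, to which each member itself contributes, was 0.992 for Sox4, 0.990 for Dcx, 0.989 for Tubb2b and 0.987 for Crmp1, and lowest for Igfbpl1 (0.727) and Dpysl3 (0.855). The 5 genes outside the list with the most similar profile were Efs (0.994), Dbn1 (0.993), Hmgb3 (0.993), 4931428F04Rik (0.991) and Vash2 (0.991). The samples of a group share a genotype and a day, so these values mainly describe 4 groups. Dbn1, which encodes the actin binding protein drebrin, was at 74.8 to 82.2 normalized CPM in C3H, 106 to 114 in Pde6b rd1, 55.8 to 64.9 in Prph rd2 and 48.3 to 49.97 in Pde6b rd10, again with separate groups in the same order.

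Circular RNAs, in which a back-splice joins the end of an exon to the start of an upstream exon, are a further readout of these genes. Of 12510 circular RNAs in the table, 5 belonged to members, 4 to Dpysl3 and 1 to Crmp1, and the other 8 members had none. Together they held 21 junction reads, of 9819 to 25009 junction reads per sample in all. The Dpysl3 circular RNA with the most reads had 13 in 6 samples, of which 7 were in Prph rd2, 4 in Pde6b rd10, and 1 each in Pde6b rd1 and C3H. With so few reads no test between groups was made.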

How the data were processed

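Retinal RNA of 12 samples was depleted of ribosomal RNA, made into directional libraries and sequenced on an Illumina HiSeq. The authors aligned the reads to GRCm38 and counted them per gene with HTSeq 0.11.2, and these counts were deposited without normalization. The deposited FPKM values are the same counts scaled by the length of each gene and the library's gene reads. The authors also deposited circular RNA junction counts, found with TopHat2 2.1.1 and CIRCexplorer, and their TPM values, which were not used here. The submitters' processing notes also name HISAT2, FastQC, DESeq2 1.26.0 and limma 3.40.6. Gene positions came from GENCODE vM21.

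The C3H samples and the samples of each model were fitted together in edgeR 4.0.16 (R 4.3.3), with TMM normalization, filterByExpr and the quasi-likelihood test, 3 samples against 3. Models were compared with each other in 1 fit of all 12 samples. Genes were called at an unadjusted p under 0.05 and at least 1.5-fold, the study's thresholds, and adjusted p-values are Benjamini-Hochberg over all genes tested. The members and gene lists were chosen with earlier results of these data known. All 10 members are named in every comparison, relatives where called, of other lists up to 4 called genes with the smallest p (here at times fewer), and the 5 genes most similar in profile. The steps were tested on simulated data. The alternatives tried were limma 3.58.1 on log2(FPKM + 1) and log2(FPKM + 0.1), DESeq2 1.42.0, other size factors and filters, the adjusted p as threshold, other samples in the fit, the replicate number as a block, the samples of the highest read quality as a term, and each sample left out in turn. Depth was 17049495 to 24755890 counted reads per sample, and intervals and floors reflect counting error alone, as the reads carry no molecular identifiers and may repeat a molecule. Tables and figures were made with Python 3.11.15. Results for some genes are left out here.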

Additional observations from a re-analysis of the deposited data

Results flagged for a closer look

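The difference of a model from C3H was itself different between models for all 10 genes, by the contrast of the models in edgeR's fit of 12 samples at an unadjusted p under 0.05 and at least 1.5-fold. By limma on log2(FPKM + 1), Igfbpl1 was not called between Pde6b rd1 and Pde6b rd10 (0.51). The contrasts set the models directly against each other, but the C3H samples in the fit enter its filter, its normalization and its estimate of the spread. The models differ in labelled day and in sex-linked transcripts as well as in mutation. By the study's methods, Pde6b rd10 also differs in strain from Pde6b rd1 and Prph rd2. By the labels, which give C57BL6/J for Prph rd2, the strain of Prph rd2 may also differ from that of Pde6b rd1. These differences cannot be told apart. Pde6b rd1 over Pde6b rd10 gave log2 fold changes of 2.02 for Sox4, 1.44 for Sox11, 2.52 for Dcx, 1.08 for Igfbpl1, 1.46 for Marcksl1, 0.95 for Stmn1, 2.29 for Tubb2b, 1.23 for Dpysl3, 1.22 for Gap43 and 0.86 for Crmp1. Except for Igfbpl1, these genes lay above C3H in Pde6b rd1 and below it in Pde6b rd10.

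Pde6b rd1 over Prph rd2 gave 1.28 for Sox4, 1.43 for Sox11, 1.66 for Dcx, 2.09 for Igfbpl1, 0.93 for Marcksl1, 2.00 for Tubb2b, 0.77 for Gap43 and 0.60 for Crmp1. Pde6b rd10 over Prph rd2 gave -0.75 for Sox4, -0.86 for Dcx, -0.60 for Stmn1, -0.89 for Dpysl3 and 1.01 for Igfbpl1.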

How the results depend on the processing

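With the replicate number as a block, the count of members called was the same as without it in all 6 comparisons (5 in Pde6b rd1, 2 in Prph rd2 and 7 in Pde6b rd10 against C3H). Same-numbered samples correlated between -0.126 and 0.0952 in the comparisons with C3H and between -0.0991 and 0.382 in those between models. In no comparison were all 3 pairs over 0.1, so the numbers were not taken to pair the samples. Between models, however, the same-numbered pairs of replicates 2 and 3 lay between 0.183 and 0.382. Differently numbered pairs reached -0.469 there, and whether the samples share a batch was not tested. With each sample left out in turn, between 5 and 5 members were called in Pde6b rd1 against C3H, 7 and 8 in Pde6b rd10, 2 and 2 in Prph rd2, 7 and 8 between Pde6b rd1 and Prph rd2, 10 and 10 between Pde6b rd1 and Pde6b rd10, and 4 and 5 between Pde6b rd10 and Prph rd2. Without C3H replicate 1, Crmp1 was called in Pde6b rd10 at -0.59, without Pde6b rd1 replicate 2 or Prph rd2 replicate 3 it was not called at 0.57 between Pde6b rd1 and Prph rd2, and without Prph rd2 replicate 2, Stmn1 was not called at -0.54 between Pde6b rd10 and Prph rd2.

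In Prph rd2 against C3H, 2 members were called, 1 by limma on log2(FPKM + 1) and 4 against the C3H sample of day 29 alone, where a lone sample is assumed to vary like the other groups. Between Pde6b rd10 and Prph rd2, 5 were called, and 2 by limma on log2(FPKM + 1), which lost Igfbpl1 (0.29), Dcx (-0.53) and Stmn1 (-0.56). By limma on log2(FPKM + 0.1), only Stmn1 was lost there (-0.58). The cause was not tested. On log2(FPKM + 1), limma called 6 in place of 7 in Pde6b rd10 against C3H, without Stmn1, and 4 in place of 5 in Pde6b rd1, without Igfbpl1. No member changed direction past the threshold under any alternative that was run. The median C3H ratio of day 13 over day 29, 0.928, was 0.940 by FPKM or library size and 0.970 under inner retina scaling. Depth limits Igfbpl1, and with 1 sample per day no change within C3H can be tested.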

Other observations

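Imprinted and fetal growth genes, many of which are known to be high before birth, were also followed, with no test of the list. In Pde6b rd1, where 8.98% of all genes were called higher, edgeR called 2 of 9 higher, H19 (log2 fold change 1.74, SE 0.134, adjusted p = 1.79e-10) and Igf2bp3 (1.73, SE 0.186, adjusted p = 4.85e-08). In Pde6b rd10, where 15.9% of all genes were called higher, 4 of 9 were, among them Peg3 (0.63, SE 0.0378, edgeR adjusted p = 1.07e-11) and H19 (1.22, SE 0.156, edgeR adjusted p = 1.18e-06), and in Prph rd2, H19 was called lower (-1.10, SE 0.231, edgeR adjusted p = 0.00731). H19 was thus above C3H in Pde6b rd10, where 7 of the 10 immature neuron genes were called lower.

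Of all genes tested, 8.98% were called higher and 6.03% lower in Pde6b rd1, and 15.9% and 8.08% in Pde6b rd10. Cone genes were called lower for 4 of 9 and higher for 1 in Pde6b rd1, and higher for 4 and lower for 1 in Pde6b rd10. The cone phosphodiesterase gene Pde6h was at -1.50 (SE 0.0984, edgeR adjusted p = 1.02e-11) in Pde6b rd1 and 2.39 (SE 0.0560, edgeR adjusted p = 1.94e-18) in Pde6b rd10. Of 6 pigment epithelium genes, 3 were called lower in Pde6b rd1, with a summed level of 24.6 to 29.3 normalized CPM against 38.7 to 45.6 in C3H. Lens genes summed to 3.26 to 3.56 in C3H, 1.06 to 1.41 in Pde6b rd1 and 5.68 to 6.34 in Pde6b rd10, where 4 of 5 were called higher and 1, Bfsp1, lower. Of 8 vessel genes, 1 was called lower in Pde6b rd1, and 1 higher (Vwf, 3.13, SE 0.0687, edgeR adjusted p = 7.36e-19) and 1 lower in Pde6b rd10.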
